A study of Mus musculus with 3 samples.

Results

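The genes described here are long noncoding genes defined by where they lie beside another gene. A gene belongs to the set where at least 1 of its transcripts carries the annotated biotype antisense (on the opposite strand of another gene), bidirectional_promoter_lncRNA (starting beside a coding gene and running away from it) or sense_overlapping (overlapping a coding gene on its own strand). A930037H05Rik, Zfas1 and Airn are examples, while AC119228.1, Kcnq1ot1 and genes whose symbol starts with Snhg or Mir were set aside. The rule found 3330 of the 55536 annotated genes, of which 3084 were antisense, 212 bidirectional and 34 sense-overlapping. The rule reads the annotation alone.

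Macrophages grown from the bone marrow of C57BL/6J mice (primary cells) were fractionated, and the RNA left on chromatin was sequenced. All cells had received 100 ng/ml of lipid A for 120 min. Lipid A is the part of bacterial lipopolysaccharide that TLR4 senses. The series is a single group of 3 libraries of ribosomal RNA-depleted total RNA, labelled as biological replicates 1, 2 and 3, so no untreated level was analysed here. They share a donor label, the labels do not say whether they came from separate cultures, and age and sex were not recorded. Each SD below measures how far the 3 libraries differ. Each p for a member against its neighbouring gene tests their difference in level, judged against the spread between libraries. Only the test of variation between libraries asks about that spread itself. The spread may be technical. The labelled input was 1 µg, 250 ng and 500 ng in replicates 1, 2 and 3, and cannot be told apart from replicate.

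Antisense transcripts can overlap the exons or introns of the gene on the other strand, and some silence or tune it in cis, as Airn does to Igf2r on the imprinted paternal allele. Divergent transcripts arise because many promoters, above all those rich in CpG, start transcription in both directions. Many such RNAs are unstable and stay near the site where they are made, which is why the chromatin fraction is a natural place to look for them.

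The promoters of a few members show how different their start regions are. RefSeq promoter windows on GRCm38.p6, running from 250 nt before to 50 nt after a start, matched 1239 of the 3330 members by symbol, and 976 of these lay within 1000 nt of the start annotated in GENCODE M21. The lines below give the most abundant member (A930037H05Rik), the second (Zfas1), a divergent member far above its neighbour (4632427E13Rik), an imprinted antisense gene (Airn) and the antisense gene at Il1b (Il1bos), 5′ to 3′, with each CpG in capitals.
A930037H05Rik promoter, chr11:119491186-119491485, minus strand: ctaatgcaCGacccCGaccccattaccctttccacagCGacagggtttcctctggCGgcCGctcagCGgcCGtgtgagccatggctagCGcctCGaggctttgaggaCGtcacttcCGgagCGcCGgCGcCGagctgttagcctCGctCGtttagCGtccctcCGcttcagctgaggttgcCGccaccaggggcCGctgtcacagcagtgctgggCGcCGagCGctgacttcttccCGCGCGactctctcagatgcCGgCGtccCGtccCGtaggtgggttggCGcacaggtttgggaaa
Zfas1 promoter, chr2:167062684-167062983, plus strand: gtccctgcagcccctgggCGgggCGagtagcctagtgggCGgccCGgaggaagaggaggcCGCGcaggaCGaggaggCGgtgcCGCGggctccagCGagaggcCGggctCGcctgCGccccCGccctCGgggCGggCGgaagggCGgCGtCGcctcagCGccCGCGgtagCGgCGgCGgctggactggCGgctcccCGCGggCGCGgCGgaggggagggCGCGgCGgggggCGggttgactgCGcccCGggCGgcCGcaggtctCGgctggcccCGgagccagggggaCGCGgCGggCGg
4632427E13Rik promoter, chr7:92741410-92741709, minus strand: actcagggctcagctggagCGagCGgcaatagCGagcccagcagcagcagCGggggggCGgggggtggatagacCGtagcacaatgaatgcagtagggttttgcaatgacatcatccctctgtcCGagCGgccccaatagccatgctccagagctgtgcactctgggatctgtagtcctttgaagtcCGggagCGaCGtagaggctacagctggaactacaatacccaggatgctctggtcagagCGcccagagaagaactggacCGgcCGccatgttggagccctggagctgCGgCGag
Airn promoter, chr17:12741061-12741360, plus strand: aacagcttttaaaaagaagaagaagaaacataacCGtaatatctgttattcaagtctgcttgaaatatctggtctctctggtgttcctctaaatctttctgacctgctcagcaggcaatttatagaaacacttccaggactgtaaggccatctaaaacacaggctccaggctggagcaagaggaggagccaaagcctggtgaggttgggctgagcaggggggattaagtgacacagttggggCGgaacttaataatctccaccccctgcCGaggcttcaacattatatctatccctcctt
Il1bos promoter, chr2:129369652-129369951, plus strand: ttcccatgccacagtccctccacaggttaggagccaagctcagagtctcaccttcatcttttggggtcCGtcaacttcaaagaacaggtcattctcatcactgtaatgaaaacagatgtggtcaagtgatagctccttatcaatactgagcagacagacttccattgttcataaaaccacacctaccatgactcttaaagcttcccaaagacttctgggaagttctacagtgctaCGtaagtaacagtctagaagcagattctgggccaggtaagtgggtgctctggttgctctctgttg
The Zfas1 window held 47 CpG and 83% G and C, the A930037H05Rik window 32 CpG and 66%, and the 4632427E13Rik window 16 CpG and 60.7%. The Airn window held 3 CpG and 45.7%, and the Il1bos window 2 CpG and 46%. Over the 98 windows of bidirectional members the median was 28 CpG and 66.2% G and C, against 6 CpG and 52.3% over the 872 windows of antisense members. Across the 17384 windows of all genes the medians were 13 CpG and 56.3%.

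Motifs of factors active after TLR4 stimulation occurred in these windows about as often as in promoters at large. On either strand, the interferon response core GAAANNGAA was in 6.86% of member windows and 7.94% of all windows. The AP-1 motif TGANTCA was in 7.68% and 6.95%, the PU.1 motif GAGGAAGT in 2.66% and 3.28%, the NF-kB consensus (by name) in 5.12% and 4.82%, and the TATA box TATAAA in 8.91% and 11.7%. Among the 110 windows of members detected below, the interferon core was in 8.18% and the NF-kB consensus in 6.36%. Among the members named in this report, the PU.1 letters stood 102 nt before the start of Gm16174, which lies opposite Bcl3. The interferon core was in the windows of Wt1os and Six3os1, and the NF-kB consensus in that of Wt1os. Both of these members had a count of 0 in every library of the deposited gene tables. TATA letters were in the windows of Airn and Hoxa11os. A match on letters alone does not show that a factor binds.

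Levels are those of the deposited gene tables unless the other quantifier is named, a second deposited table made directly from the reads. Annotated reads came to 19751051, 20372850 and 21984526 expected counts in replicates 1, 2 and 3, and TPM is a level scaled by transcript length and library size. Each of the 10 macrophage markers examined averaged at least 5.54 TPM, while none of the 5 B cell, 5 neutrophil and 4 fibroblast markers and 1 of the 6 T cell markers averaged at least 1 TPM. Replicate 2 stood apart, with ribosomal protein genes 1.53 and mitochondrially encoded genes 3.42 log2 units above the mean of the others. The strand setting used in counting is not given in the sources used here, so reads of a member and of a gene opposite to it, unspliced intronic RNA included, cannot be told apart.

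Antisense and divergent genes were a small part of the chromatin RNA. They held 0.403%, 0.474% and 0.648% of expected counts in replicates 1, 2 and 3 (0.508% ± 0.126, SD, n = 3). The 10 members with the most counts took 31.1% ± 1.72 (SD, n = 3) of all member counts, and A930037H05Rik alone took 11.7% ± 1.45. The share was lowest in replicate 1 and highest in replicate 3.

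At a level of at least 1 TPM in every library, 407 of the 3330 members (12.2%) were detected, against 18.4% of all annotated genes, 37.4% of protein-coding genes and 2.68% of lincRNA genes outside the set. With the other quantifier 993 members (29.8%) and 29% of all annotated genes passed, so the shortfall against all genes was seen in the gene tables only. By biotype, 387 antisense, 18 bidirectional and 2 sense-overlapping members were detected. Only 77 members averaged 10 TPM or more, and 1549 had a count of 0 in all 3 libraries. Single libraries passed 457, 557 and 642 members, and 143 members passed in just 1. Of the 407, 24 rested on a mean count under 10, 19 of these with under 500 nt of exon, where a short effective length makes each read worth many TPM.

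Detection followed the level of the coding gene beside the member, called its partner. The partner was the protein-coding gene with the longest overlap on the opposite strand, a coding gene starting head to head within 1000 nt, or, for sense-overlapping members, the coding gene on the same strand. With a partner under 0.1 TPM, 6 of 1186 members (0.506%) were detected. The share was 2.02% (10 of 496) at 0.1 to 1 TPM, 10.8% (80 of 743) at 1 to 10 TPM, 35.4% (228 of 644) at 10 to 100 TPM, and 73.3% (74 of 101) at 100 TPM or more. In an alternative chosen after seeing the data, with both levels from the other quantifier, the shares in the same order were 13%, 11.8%, 24.8%, 58.4% and 84%. Under both quantifiers most members beside a coding gene at 100 TPM or more were detected, while the share beside coding genes under 0.1 TPM was far higher by the other quantifier.

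The rise with the partner was also present where the RNA of the partner's introns covers the member. Members lying wholly within opposite-strand introns were detected in 48.6% of cases (72 of 148) at 10 to 100 TPM of the partner and in 70% (21 of 30) at 100 TPM or more. Noncoding genes outside the set, of at least 200 nt and in the same kind of position, reached 56.1% (207 of 369) and 82.9% (34 of 41). Members with no exon base inside an opposite coding gene reached 10.9% (7 of 64) and 37.5% (3 of 8). The other quantifier gave 76.4% (133 of 174) and 83.7% (36 of 43) for members within introns. For those with no exon base inside an opposite coding gene it gave 35.1% (26 of 74) and 60% (6 of 10). This last class also holds sense-overlapping members, such as Gm48286 within Mark3, which overlap their partner on its own strand. Whether intronic reads of the partner were counted to these members was not tested.

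**Figure D1:**
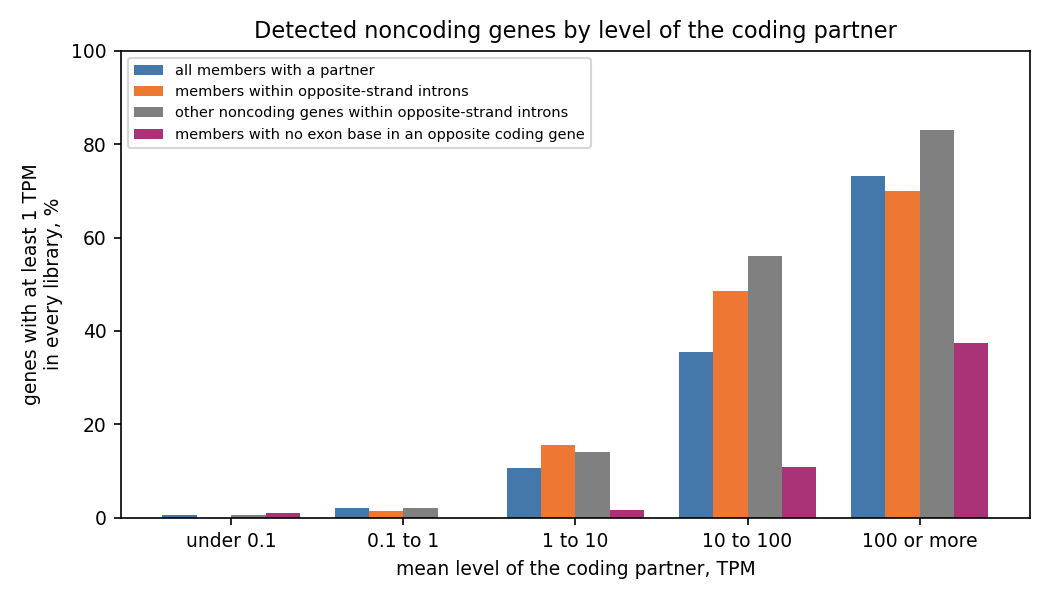
Percent of genes with at least 1 TPM in every library (vertical axis) by mean level of the coding partner in TPM (horizontal axis). Bars show all members, members within opposite-strand introns, other noncoding genes in such introns, and members with no exon base in an opposite coding gene. The bars climb with the partner, from 0.506% to 73.3% for all members. Those of members with no exon base in an opposite coding gene stay lowest from 1 TPM of the partner upward.

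Across the 3170 members with a partner, the rank correlation of mean TPM between member and partner was 0.715 (Spearman's rho, over pairs of genes from the same libraries). Over the 398 detected members it was 0.354, and over the 123 of these within introns 0.42. Over the 12 with no exon base in an opposite coding gene it was 0.224. These 12 include the sense-overlapping BX649560.1 and Gm48286, which overlap their partners on the same strand. From the other quantifier's levels rho was 0.542 over all pairs and 0.457 over the same detected members. These are descriptions over genes, which are not independent replicates.

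The most abundant member was A930037H05Rik (chr11:119448788-119491298, minus strand, mm10). It had 93.9, 147 and 225 TPM in replicates 1, 2 and 3 (155 ± 65.9, SD, n = 3), from a mean count of 12772. It starts 49 nt from Endov, the gene of an inosine-directed endonuclease, and runs away from it into the body of Rnf213, a large ubiquitin ligase gene, on the opposite strand. Endov was low in every library, at 4.82, 5.30 and 5.72 TPM, and every library of A930037H05Rik was above every library of Endov. Rnf213 averaged 1204 TPM, and 77.2% of the member's exon bases lie over introns of opposite coding genes. Transcripts with a biotype of the rule made up 56.7% of the level of A930037H05Rik.

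Zfas1 (chr2:167062934-167065862, plus strand), which hosts small nucleolar RNAs, was the second, at 107, 104 and 122 TPM. It starts 81 nt from Znfx1, the gene of an antiviral RNA-binding helicase, which had 115, 133 and 163 TPM. Only 21.8% of the level of Zfas1 came from transcripts with the antisense biotype. It shares only 2.8% of its exon bases with an opposite exon and has none over an intron.

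Gm40578 (chr12:111450405-111500840, minus strand) followed with 76.9, 105 and 124 TPM. It lies opposite Tnfaip2, a gene induced by TNF and endotoxin, which stood at 1165, 1363 and 1507 TPM. 4933423P22Rik (chr2:90479236-90488425, plus strand), inside an intron of the receptor phosphatase gene Ptprj, had 64.9, 78.7 and 122 TPM against 134, 113 and 124 TPM for Ptprj. In TPM both members were lowest in replicate 1 and highest in replicate 3, and the ranges of 4933423P22Rik and Ptprj overlapped. Gm40578 was not called in the test of variation between libraries (chi-square on counts, adjusted p = 0.127).

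Several of the next members lay in the Sp100 family cluster on chromosome 1, whose genes encode nuclear body proteins and resemble each other in sequence. Reads shared within the cluster were not tested for, and the gene tables put the error of their own read assignment at 0 of 355 counts for Gm16094, 16.7 of 2409 for Gm17017 and 10.3 of 239 for Gm10552. Gm16094 (chr1:85599286-85599839, 176 TPM by the other quantifier), which starts 469 nt from Sp110 and runs away from it, had 34.3, 77.2 and 148 TPM, the widest spread of the 6 most abundant members relative to its mean. Gm17017 had 31.7, 46.6 and 73.3 TPM and Gm10552 19.8, 38.1 and 41.6 TPM, both opposite Sp140, which averaged 416 TPM. In TPM all 3 were lowest in replicate 1 and highest in replicate 3. Gm10552 was not called in the test of variation between libraries (chi-square on counts, adjusted p = 0.149).

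Gm28913 (chr1:131263330-131266749, plus strand) and Gm28914 both lie opposite Ikbke, which encodes the kinase IKK-epsilon of the antiviral response. Gm28913 had 53.6, 81.7 and 94 TPM, and Gm28914 had 22.2, 29.3 and 28.5 TPM. Ikbke itself was at 732, 726 and 843 TPM. The libraries of both members stayed under those of Ikbke. The other quantifier gave means of 200 TPM for Gm28913, 32 TPM for Gm28914 and 1128 TPM for Ikbke.

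Among the rest of the 15 most abundant, Gm13556 (70.3 ± 17.9 TPM, SD, n = 3) lies opposite Dennd1a, an activator of Rab35. Gm37787 (40.1 ± 15.5) lies opposite the immune receptor gene Slamf7, Gm12000 (40.1 ± 16.1) in an intron of the lymphoid and myeloid factor Ikzf1, and Gm45479 (33.7 ± 11.1) in an intron of the interferon regulatory factor Irf2. Gm15726 (43.1 ± 4.50) lies opposite Mid1, which spans the boundary of the pseudoautosomal region. Gm44876 (33.1 ± 10.5) lies opposite the interleukin-4 receptor gene Il4ra. In 13 of the 15, replicate 3 was the highest in TPM in the gene tables, and in Gm15726 and Gm44876 replicate 1 was, though the other quantifier put replicate 3 highest in these as well.

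**Figure D2:**
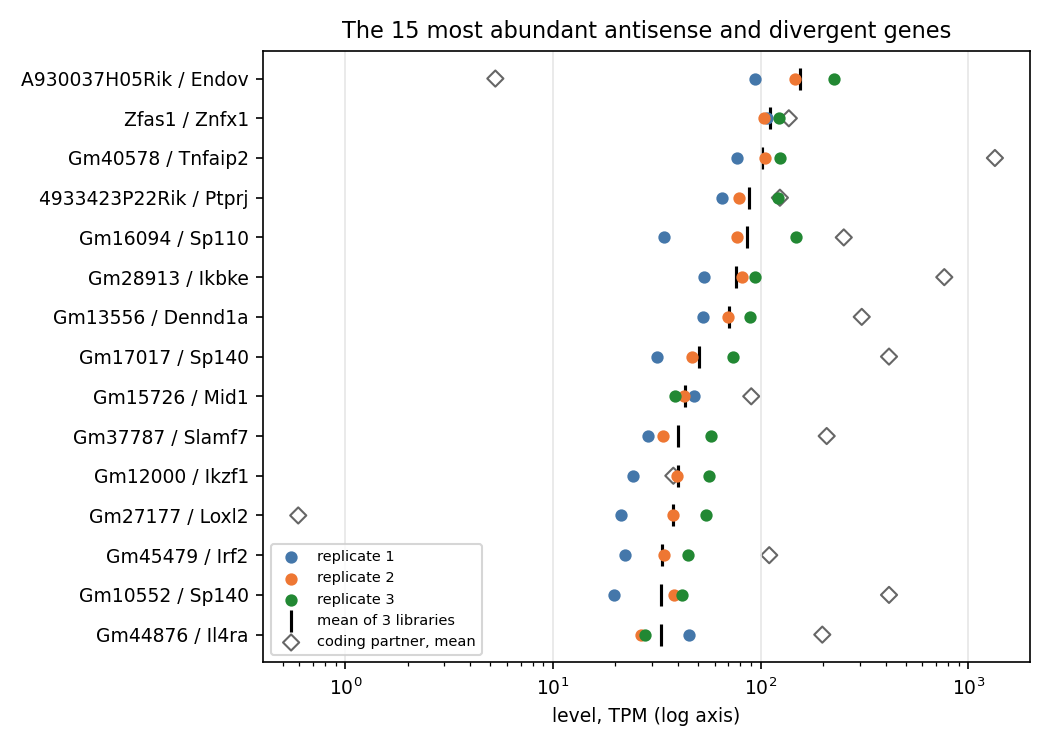
TPM on a log axis for the 15 most abundant members, each named with its coding partner. Points are the 3 libraries, the vertical tick their mean, and the open diamond the partner's mean. A930037H05Rik and Gm27177 lie far to the right of their partners Endov and Loxl2, and most others lie to the left of theirs.

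To ask how members compare with the coding gene beside them, the difference in log2(TPM + 0.1) was taken within each library and tested against 0 with limma over 5865 pairs, with Benjamini-Hochberg adjustment at 0.05. Of 1498 members in a tested pair, 1391 (92.9%) were below their partner, 32 (2.14%) were above and 75 were not called. Over the 3749 noncoding genes tested in the same way, members included, 91.9% were below and 2.48% were above. Over the 2251 outside the set 91.3% were below and 2.71% above, so the members' shares are close to the background. With the other quantifier 2268 members were tested, of which 1781 were below and 278 above, so the count above moved by much more than 1.5 times. The median difference was -3.88 log2 units over members, a level 14.7-fold lower per length. It was -4.10 over all noncoding genes and -4.28 over those outside the set. A pair entered the test with a summed mean count of at least 50, which it mostly met through the coding gene, so a low member had to differ, and 218 of the 1391 had a count of 0 in every library.

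By arrangement, members starting head to head with their partner had a median of -5.39 (164 pairs, 158 below), against -3.72 for those overlapping it on the opposite strand (1324 pairs, 1226 below). Antisense members that start close to their partner's start but overlap it, such as Zfas1, Gm13822 and Gm42567, were counted with the overlapping ones. Members with no exon base inside an opposite coding gene had a median of -5.54 (132 pairs), those sharing exon sequence -3.78 (936 pairs), and those within introns -3.40 (356 pairs). The difference between these classes was not tested.

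**Figure D3:**
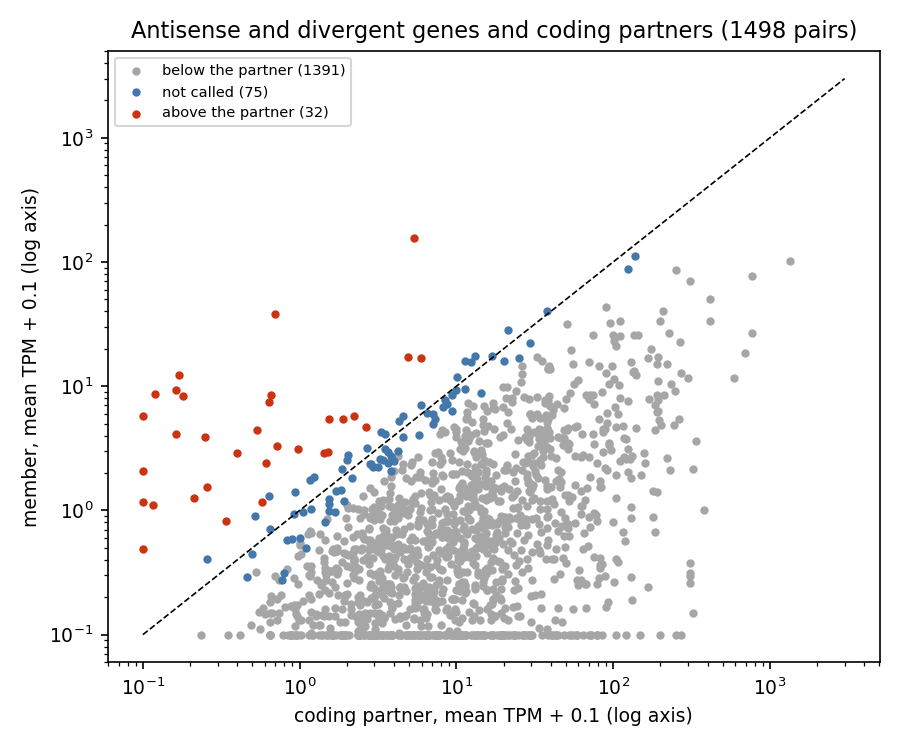
Mean TPM + 0.1 of each member (vertical, log axis) against that of its coding partner (horizontal, log axis) in the 1498 tested pairs, with the line of equal levels dashed. Grey points are the 1391 members below their partner, blue the 75 not called and red the 32 above. The red points sit over partners of low level, and no partner of theirs reaches 10 TPM.

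In the gene tables, the 32 members above their partner mostly stood beside a coding gene listed at a low level. The partner was under 1 TPM in 23 of them and under 0.1 TPM in 10, with a median of 0.455 TPM against 4.16 TPM for the members. The call itself requires a partner lower than the member, so beside members this low it largely fixes a low partner. Of the 32, 25 shared exon sequence and 3 lay wholly within introns, where 936 and 356 of the 1498 tested members did. In 9 of the 32 another coding gene in reach was higher than the member, and taking the partner with the highest TPM left 22 members above it.

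4632427E13Rik (chr7:92734166-92741468, minus strand) is the clearest divergent case, with no exon base inside a coding gene. It had 3.18, 8.86 and 13.9 TPM, while Rab30, the gene of a Golgi GTPase that starts 135 nt away on the other strand, was listed at 0.02, 0.03 and 0.01 TPM. The groups did not overlap, and the difference was 5.96 ± 0.46 log2 units (SE, adjusted p = 7.07e-05). By the other deposited quantifier the member had 6.23 TPM and Rab30 1.23 TPM.

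A930037H05Rik was above Endov by 4.77 ± 0.29 (SE, adjusted p = 3.27e-05), but under Rnf213. Gm27177, opposite the collagen crosslinking gene Loxl2, had 21.2, 37.9 and 54.4 TPM against 0.25, 0.32 and 1.21 TPM, a difference of 5.94 ± 0.30 (adjusted p = 1.79e-05), and by the other quantifier they had 51.3 and 10.4 TPM. Gm27177 also overlaps Entpd4b, at 2.70 TPM in the gene tables. Gm26642 had 5.79, 12.3 and 18.8 TPM and was above the epithelial factor Elf3 (0.07 TPM) by 6.14 ± 0.37, but it also overlaps Rnpep, an aminopeptidase gene at 145 TPM. 1700019L13Rik had 8.21, 10.1 and 9.14 TPM and was above the fractalkine receptor gene Cx3cr1 (0.06 TPM) by 5.82 ± 0.24, with Csrnp1 at 38.1 TPM as another neighbour. Gm47079 had 6.55, 8.48 and 9.67 TPM beside Icam4 at 0.08 TPM, and also overlaps the adhesion gene Icam1 at 402 TPM.

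At the other end, 4 of the 6 largest differences were members with a count of 0 in the gene tables beside abundant genes. Gm12841 had a count of 0 in every library opposite Atp6v0b, a proton pump subunit gene at 248, 271 and 299 TPM. Gm16311, inside an intron of the endocytic adaptor gene Dab2 (253 ± 46.6 TPM, SD, n = 3), also had 0, as did Gm42567, which starts 42 nt from the DNA demethylase gene Tet2 (199 ± 61.3). 4930583K01Rik had 0 and starts 195 nt from Smg1, a kinase gene of nonsense-mediated decay (148 ± 27.8). Gm10640 at Gramd1a and Gm38204 at the Fc receptor gene Fcgr2b had mean counts of 0.333 and 1.33. With the other quantifier, 4930583K01Rik was again listed at 0 and Gm16311 averaged 0.02 TPM, while Gm42567 averaged 0.61, Gm12841 1.40, Gm10640 9.36 and Gm38204 19.1 TPM, all still under their partners. All 6 partners averaged at least 148 TPM, and 4930583K01Rik and Gm42567 start within 195 nt of theirs.

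Members beside genes of the macrophage response were looked at by list. A member was counted only where its partner, as defined above, was in the list. A930037H05Rik over Rnf213, Dhx58os over Dhx58 and Gm47079 over Icam1 were therefore not counted, since their partners were Endov, Zfp385c and Icam4. Over all noncoding genes tested 91.9% were below their partner and 2.48% above, and members were detected in 35.4% of cases with a partner at 10 to 100 TPM and in 73.3% at 100 TPM or more. The small counts below are to be read against these shares. Beside 52 interferon response genes there were 7 members counted in this way, of which 5 were detected and 6 were below the partner. Slfn5os, opposite the Schlafen gene Slfn5 (211 ± 53.4 TPM), had 3.73, 7.07 and 14.3 TPM. Gm20234, opposite Slfn2, had 14.1, 17.4 and 28.3 TPM against 120, 230 and 172 TPM for Slfn2. The order turned by the other quantifier, with 146 TPM for Gm20234 and 132 TPM for Slfn2. Gm13822, which starts 37 nt from the antiviral gene Oasl1 (220 ± 93.3 TPM), and Gm11626, opposite Ifi35 (121 ± 28.6 TPM), averaged 2.56 and 2.51 TPM from mean counts of 6.67 and 6.37. Gm11626 had by the other quantifier 55.5 TPM, Ifi35 100.3 TPM, Gm13822 7.53 TPM and Slfn5os 27.3 TPM. Zfas1 was the member of this list not called, at -0.29 ± 0.24 (SE, adjusted p = 0.285) from Znfx1.

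Beside 60 genes of NF-kB signalling and its feedback there were 15 members, of which 9 were detected and all 15 were below the partner, where the background is 91.9%. Gm40578 was lower than Tnfaip2 by a difference of -3.74 ± 0.24 (adjusted p = 3.72e-05). AC114539.1, a bidirectional member at Nfkb2, which encodes the p100 precursor of the noncanonical pathway, had 10.1, 9.57 and 11 TPM against 245, 248 and 204 TPM. Gm16174 and Gm16175, both opposite Bcl3, a nuclear member of the I-kappa-B family at 74.2 ± 14.5 TPM, averaged 8.44 and 4.03 TPM. These levels rested on mean counts of 32.3 and 4. The other quantifier put them at 85.1 and 29.5 TPM and Bcl3 169 TPM, a much smaller gap. Gm43964, opposite Irak2, was also detected, at 4.40 TPM from a mean count of 8.33. Gm26885 had 8.66, 7.72 and 6.32 TPM opposite the kinase gene Pim1 at 125 ± 8.87 TPM. Gm36328, in an intron of the phosphatase gene Dusp16 (20.7 ± 3.60 TPM), was the nearest to its partner, at -1.36 ± 0.24 (adjusted p = 0.00263). The other quantifier gave 25.9 TPM for Gm36328 and 36.2 TPM for Dusp16, and 18.3 TPM for Gm26885 and 196 TPM for Pim1.

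Beside 66 cytokine, chemokine and receptor genes there were 8 members, with 4 detected and 4 of 6 tested pairs below. Il1bos was at 2.36, 2.88 and 2.19 TPM, while Il1b, the gene of the fever cytokine interleukin-1 beta, was at 82.8, 240 and 62.7 TPM. Il1b was much higher in replicate 2, while Il1bos spanned 2.19 to 2.88 TPM. Gm16712, opposite Ebi3, the gene of a subunit of interleukin-27, had 17.3, 23 and 44 TPM against 18.4, 21.8 and 23.3 TPM, which was not called (0.30 ± 0.30, adjusted p = 0.37). Gm47118 at the endothelin gene Edn1, 4.83 ± 2.68 against 6.96 ± 0.84 TPM, was not called either, and by the other quantifier they had 9.84 and 8.25 TPM. Ptgs2os, which starts 68 nt from the prostaglandin synthase gene Ptgs2 (7.92 ± 2.70 TPM), was at 0, 0.03 and 0.03 TPM.

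Beside 38 macrophage genes there were 8 members, with 4 detected and all 7 tested pairs below, where the background is 91.9%. Zeb2os had 16, 20 and 19.7 TPM opposite Zeb2, a transcription factor gene of macrophage identity at 489, 678 and 924 TPM. Gm14011, in an intron of the efferocytosis receptor gene Mertk, had 1.65, 11.1 and 12.6 TPM from a mean count of only 14.3, and by the other quantifier 45.4 TPM against 77.3 TPM for Mertk. Gm15655 at Maf and Gm26626 at Runx1 averaged 6.78 ± 3.76 and 3.27 ± 0.56 TPM. All exon bases of Gm15655 lie over exon sequence of Maf, and the error of its read assignment was 6.69 of 29.4 counts. The other quantifier gave 3.00 TPM for Gm15655 and 10.5 TPM for Maf, and 11.0 TPM for Gm26626 and 46.8 TPM for Runx1. Over all 4 lists, 32 of 35 tested pairs were below the partner and the other 3 were not called, where the background is 91.9% below. Of the 38 listed members, Gm16712 alone had a mean above its partner in the gene tables, and 3 did by the other quantifier, Gm20234, Gm47118 and Gm16712.

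Of 20 members known by name from other settings, 2 (10%) were detected, Airn and Zeb2os, near the 12.2% of all members. By the other quantifier 6 of the 20 were. Airn (chr17:12741311-12860136, plus strand) had 15.1, 15.4 and 17.2 TPM (15.9 ± 1.15, SD, n = 3). Igf2r, the growth factor receptor gene it silences in many tissues, had 12.6, 15 and 6.22 TPM, and the difference was not called (0.58 ± 0.35, adjusted p = 0.167). The gap was widest in replicate 3, where Igf2r was lowest.

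In the gene tables the rest were near or at 0. Nron, a noncoding RNA tied to NFAT transport, had 0.3, 0.51 and 0.82 TPM, and Hotairm1 of the HoxA cluster 0.66, 0 and 0.2 TPM from a mean count of 2. Gm16685, opposite Il7, had 0.03, 0.11 and 0.27 TPM. Tsix had 0.05, 0.09 and 0.12 TPM, while Xist, whose body it overlaps on the other strand, had 1228, 774 and 942 TPM. A count of 0 in all libraries was found for Wt1os, Dlx6os1, Hoxa11os, Evx1os, Hoxb5os, Six3os1 and Emx2os, most of them opposite developmental regulators that were also listed at or near 0. A count of 0 allows up to 3 counts per library, which is 0.152, 0.147 and 0.136 CPM in replicates 1, 2 and 3, for counting error only. The other quantifier differed for some of these members, with 17, 20.5 and 43.9 TPM for Wt1os and means of 3.50 TPM for Sox2ot, 2.25 TPM for Gm16685 and 1.44 TPM for Hotairm1.

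Sense-overlapping members were scarce. BX649560.1 at the collagen gene Col20a1 was the most abundant, with 3.59, 5.32 and 8.12 TPM, and was above it by 1.33 ± 0.33 (SE, adjusted p = 0.0102). AC157931.1 had 0.9, 2.25 and 3.8 TPM and was above B3gnt4, a glycosyltransferase gene. Gm48286 averaged 2.20 TPM within the kinase gene Mark3 at 34.3 TPM.

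The libraries differed in the members beyond counting error. In a chi-square test of expected counts after TMM scaling, a normalisation to the bulk of genes, 323 of 719 members with a mean count of at least 10 varied (44.9%), where the background over 14184 genes was 68.8%. Members had fewer counts, with a median mean count of 37 against 148. At 10 to 50 counts 29.5% of members and 42.2% of all genes varied, and at 50 to 200 counts 55.3% and 68.1%. At 200 to 1000 counts 87.8% and 81.3% did, and at 1000 counts or more 93.3% (of 15 members) and 94.7%. Without replicate 1 the count of varying members was 192, and without replicate 3 it was 174.

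Most members were highest in replicate 3. After TMM scaling, 449 of the 719 members (62.4%) were highest in replicate 3, against 37.1% of all genes and 29.4% of coding genes. Of lincRNA genes outside the set, 197 of 327 (60.2%) were. The 614 coding partners of these members were highest in replicate 3 in 27.7% of cases and in replicate 1 in 46.3%. In 670 pairs with both genes counted, the same library was highest for member and partner in 40.9%.

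Measured as the log2 level in 1 library minus the mean of the others, the median over members was -0.20, -0.11 and 0.32 in replicates 1, 2 and 3, against -0.11, 0.07 and 0.01 over all genes. The members within introns were highest in replicate 3 in 68% of 172 cases and those sharing exon sequence in 59.7% of 477. The ribosomal protein genes departed by -0.46, 1.53 and -0.97, with replicate 3 lowest. What part this class or starting RNA had in the members' shift was not tested.

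**Figure D4:**
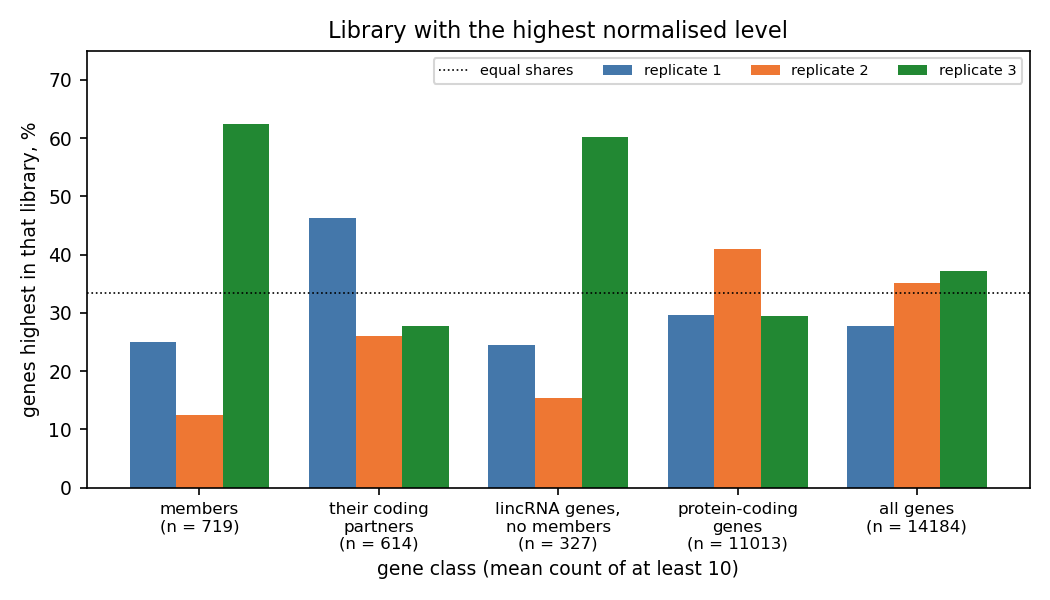
Percent of genes that were highest in each library after TMM scaling (vertical axis), for members, their coding partners, lincRNA genes outside the set, protein-coding genes and all genes (horizontal axis). The dotted line marks equal shares. Replicate 3 leads for members (62.4%) and other lincRNA genes (60.2%), and replicate 1 for the coding partners (46.3%).

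Single members showed larger swings. Gm49774, which starts 21 nt from the chromatin architectural gene Hmga1, had 0.86, 0.22 and 0.18 TPM, with a coefficient of variation of 1.07 beyond counting error. Hmga1 moved otherwise, at 9.63, 23.1 and 9.59 TPM. Gm44876 had 45.3, 26.5 and 27.7 TPM, and Gm13966, opposite the formin gene Fmn1, 21.1, 12.9 and 13 TPM, so these 3 were highest in replicate 1 in the gene tables. In the other quantifier's table replicate 3 was highest for Gm49774 (1.37, 1.06 and 1.54 TPM) and Gm44876 (34.5, 28.3 and 62.4 TPM), and replicate 1 again for Gm13966. 4732440D04Rik, opposite the autophagy gene Rb1cc1, had 0.75, 2.06 and 3.4 TPM, and B430010I23Rik, opposite Mtus1, 2.14, 3.11 and 8.39 TPM, both highest in replicate 3. Gm28913, Zeb2os, AC114539.1 and Gm47079 showed no spread beyond counting error by this estimate. The estimate uses counts, which can spread less than TPM. Gm28913 had 200, 207 and 268 counts where its TPM was 53.6, 81.7 and 94.

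Member levels differed between the deposited quantifiers. The other quantifier, made directly from the reads, gave detected members a median of 0.61 log2 units more than the gene tables, against 0.27 for all detected genes. It differed by over 2-fold in 35.1% of detected members (137 higher, 6 lower) and in 16.2% of detected genes at large. Within introns the share was 43.9% of 123, all of them higher. Zeb2os had 18.6 TPM in the gene tables and 128 TPM by the other quantifier, Gm20234 19.9 and 146 TPM, and Airn 15.9 and 55.4 TPM. Gm17139, all of whose exon bases lie over an exon of Arel1, had 14.5 TPM and was listed at 0 by the other quantifier.

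The gene tables give a spread for their own assignment of reads, which was 0 in 207 of the 407 detected members. It was 0 in 97.6% of those within introns and in 24.4% of those sharing exon sequence. That spread compares annotated transcripts only, in which introns are absent, so it holds no error from unspliced RNA of the partner.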

How the data were processed

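Gene and transcript tables of 3 libraries were used. The authors deposited expected counts, estimates of reads per gene that are often fractional, and TPM, with mm10 and GENCODE M21 named in a deposited note. A further deposited transcript table of estimated counts and TPM (the other quantifier) was summed per gene. Tool names, versions and strandedness: not given in the sources used here. M21 matched 55536 of 81881 entries. The unmatched held 0.845%, 0.282% and 0.179% of counts and were left out.

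Members came from transcript biotypes, and partners and overlaps from M21 coordinates. Pair differences used limma 3.58.1 on log2(TPM + 0.1), and a fold change on that scale understates low genes. Variation used rounded expected counts with TMM from edgeR 4.0.16, and DESeq2 1.42.0 size factors as an alternative. Both procedures were tested on simulated data. The pair test recovered 67% of differences of 2 log2 units and 98% of those of 4, with 8 false calls in a run of 5865 pairs. The variation test recovered 60% of 1.5-fold and 98% of 3-fold changes in 1 library, with 4 false calls in a run of 14184 genes. Its simulated counts held counting error alone. Promoter sequences are RefSeq's.

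Named genes are the 15 most abundant, the 5 highest of each biotype, the 6 most above, below and variable, detected members with a listed partner, a list of known members, and the 5 with the largest quantifier ratio each way. Members, lists and tests were chosen with earlier results of these data known.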

Additional observations from a re-analysis of the deposited data

How the results depend on the processing

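The number of members below their partner was 1391 and stayed within 1.5 times of that under 9 alternatives (1042 to 1781, and 1346 to 1393 on leaving out a replicate). It was 528 over pairs with no shared exon base, where 579 members were tested. The number above, 32, was 70 with no filter on low values, 15 with a pair count of at least 200, 278 with the other quantifier and 13 with no shared exon base, and 24 to 35 on leaving out a replicate. The number of varying members, 323, was 199 at a mean count of at least 50 and 698 with the other quantifier, and 174 to 290 on leaving out a replicate. It was 330 with DESeq2 size factors and 400 with library totals alone. Detected members, 407, numbered 993 with the other quantifier, 1025 at a threshold of 0.1 TPM and 114 at 5 TPM, and 416 to 520 on leaving out a replicate. The share of counts, 0.508%, was 0.961% with the other quantifier and 0.742% over coding and long noncoding genes without ribosomal DNA entries, and 0.439% to 0.561% on leaving out a replicate. The cause of these moves was not tested, beyond the fewer genes or libraries that a filter leaves. The median departure kept its sign in each replicate under the 4 alternatives run, and with library totals alone the median of all genes in replicates 1, 2 and 3 was -0.31, 0.08 and 0.21. In an alternative chosen after seeing the data, the share of members detected rose in each class of partner level with the other quantifier. Of 81 named members, 53 moved by more than 1 SD with the other quantifier. On leaving out a replicate none did, but leaving out 1 of 3 libraries cannot move a mean by that much. This check therefore says nothing on how stable the levels are. No paired analysis was possible because there is a single group. A wider promoter window was not run. At 0.1 TPM and for short members a handful of reads sets the level, so depth limits those counts.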
